A study of Mus musculus with 5 samples.

Results

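The 32 genes described here encode proteins of the acrosome, the tail and the energy supply of sperm, and were taken as a list by function from 34614 protein-coding and lncRNA genes of the mouse. They comprised 11 genes of the acrosome and egg binding, 7 of the tail and its mitochondrial sheath, 5 of the CatSper calcium channel, 4 of energy metabolism, and 5 encoding kinases, a chaperone and a transcription factor. The study compared CpG methylation by whole-genome bisulfite sequencing in sperm of old C57BL/6 mice, aged 18 months, and young C57BL/6 mice, aged 2 months. Both groups are marked F0 in the labels, no treatment is named, and all sperm were collected by swim-out from the cauda epididymis, where sperm are stored before ejaculation. There were 2 old libraries (old replicates 1 and 2) and 3 young libraries (young replicates 1 to 3), and nothing in the labels ties a library to 1 animal. The p-values given here therefore reflect the spread among libraries alone, which may be technical.

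Round and elongating spermatids are haploid cells that build the acrosome, the enzyme-filled cap that opens at the egg, and the tail, whose outer dense fibres and tektins stiffen the axoneme around which mitochondria are wound. The calcium channel CatSper sits in the membrane of the tail and is needed for hyperactivated swimming. Several steps of energy metabolism run on enzymes specific to male germ cells (Pgk2, Ldhc, Gapdhs and Pdha2), and the activator CREM, which binds cAMP response elements (CREs), drives many of these genes in spermatids. DNA methylation sits mostly on CpGs. In most cells active promoters rich in CpGs carry little of it and gene bodies carry much, and a mature sperm no longer transcribes, so its methylation is a record of marks laid down earlier.

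A start was the 1000 bp either side of the first transcription start in RefSeq's promoter table, and a body was the rest of the gene with 1000 bp on both sides. In some members, among them Zpbp, Odf2, Gapdhs and Tekt1, the gene span reaches further 5′ than that start. RefSeq's promoter table listed a start for 26 of the 32 members. For Acr, Odf1, Catsper1, Crem, Adam2 and Adam3 it lists none, and the less methylated of both gene ends over all libraries stood in for it, called a gene end below. CpGs were used where at least 4 of the 5 libraries had 5 or more reads, and a start or body counted as measured with at least 3 such CpGs and 20 reads in every library. By this rule 8 of 32 member starts (25%) and 24 of 32 member bodies (75%) were measured, beside 20% of starts and 65.8% of bodies over all genes. The reads listed per library ranged from 67774094 to 97769462, and the median depth of the CpGs used was 8 to 11 reads. The overall level at listed CpGs was 86.3% to 86.9%.

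The promoters that carry most of what follows are printed here, since their methylation in sperm ranged from near none to near full. Each runs from 250 bases before to 49 after the listed start, from RefSeq on GRCm38.p6, 5′ to 3′ on the gene's own strand, with capitals marking each CpG that at least 1 library listed. They are the germ cell isozyme genes Pdha2 (chr3:141212306-141212605, minus strand), Pgk2 (chr17:40208560-40208859, minus strand) and Ldhc (chr7:46861013-46861312, plus strand), the tektin genes Tekt1 (chr11:72361833-72362132, minus strand) and Tekt2 (chr4:126325639-126325938, minus strand), and the acrosome gene Spaca3 (chr11:80858113-80858412, plus strand).
Pdha2: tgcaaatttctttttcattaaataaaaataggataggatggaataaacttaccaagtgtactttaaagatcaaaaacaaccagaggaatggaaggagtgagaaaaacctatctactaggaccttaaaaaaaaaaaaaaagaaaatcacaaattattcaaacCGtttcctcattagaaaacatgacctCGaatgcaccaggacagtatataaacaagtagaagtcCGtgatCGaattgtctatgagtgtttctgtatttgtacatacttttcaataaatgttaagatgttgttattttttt
Pgk2: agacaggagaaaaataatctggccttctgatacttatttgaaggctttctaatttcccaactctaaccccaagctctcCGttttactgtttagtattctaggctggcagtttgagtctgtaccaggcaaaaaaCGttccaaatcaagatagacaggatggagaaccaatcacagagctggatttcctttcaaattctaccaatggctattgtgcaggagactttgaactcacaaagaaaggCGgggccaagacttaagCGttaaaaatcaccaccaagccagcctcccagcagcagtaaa
Ldhc: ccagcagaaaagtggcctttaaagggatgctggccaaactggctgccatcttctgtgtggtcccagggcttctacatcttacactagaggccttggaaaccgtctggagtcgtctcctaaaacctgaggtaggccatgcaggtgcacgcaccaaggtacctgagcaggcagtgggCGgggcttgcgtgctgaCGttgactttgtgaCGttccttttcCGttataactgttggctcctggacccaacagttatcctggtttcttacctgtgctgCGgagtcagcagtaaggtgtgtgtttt
Tekt1: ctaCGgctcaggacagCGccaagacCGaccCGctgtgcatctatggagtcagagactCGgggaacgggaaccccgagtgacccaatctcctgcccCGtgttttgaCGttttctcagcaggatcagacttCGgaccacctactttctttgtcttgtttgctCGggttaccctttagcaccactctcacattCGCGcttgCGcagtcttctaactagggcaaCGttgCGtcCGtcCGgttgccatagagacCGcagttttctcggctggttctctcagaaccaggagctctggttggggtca
Tekt2: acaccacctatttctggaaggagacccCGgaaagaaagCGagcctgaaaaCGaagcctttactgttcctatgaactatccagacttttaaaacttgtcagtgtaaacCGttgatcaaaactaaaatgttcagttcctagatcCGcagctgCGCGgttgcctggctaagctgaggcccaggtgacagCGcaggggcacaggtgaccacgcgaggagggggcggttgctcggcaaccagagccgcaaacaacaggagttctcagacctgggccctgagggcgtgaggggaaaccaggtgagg
Spaca3: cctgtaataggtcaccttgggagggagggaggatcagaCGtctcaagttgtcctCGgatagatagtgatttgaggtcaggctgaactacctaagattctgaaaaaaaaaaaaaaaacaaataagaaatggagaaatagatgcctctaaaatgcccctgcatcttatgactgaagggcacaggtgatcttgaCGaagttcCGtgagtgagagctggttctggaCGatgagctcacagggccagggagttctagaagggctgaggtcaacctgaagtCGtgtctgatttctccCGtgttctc

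Pdha2, an intronless gene for the germ cell form of the E1 alpha subunit of pyruvate dehydrogenase, had a promoter with 4 CpGs, all measured in every library, and all partly methylated. Over these 4 CpGs the level was 27.9% and 39.4% in old replicates 1 and 2, against 32.1%, 20% and 52.1% in young replicates 1, 2 and 3. The highest and the lowest library were both young, so the old libraries lay within the young range. The mean was 33.6 ± 8.15% in old sperm (SD, n = 2) and 34.7 ± 16.2% in young sperm (SD, n = 3). Upstream of the promoter, over 3 CpGs, the pooled level was 68.1% of 116 reads, against 37.5% of 296 reads in the promoter itself. Counted from the start, the CpG at -424 bp was 86.5% methylated and the promoter CpG at -26 bp 33.3%, both over all libraries. The level was thus lower in the promoter than upstream of it. Downstream of the promoter the level stayed low, at 31.96% of 97 pooled reads over 13 CpGs, most of them listed in 1 library only. The low level was therefore not confined to the sequence near the start.

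Pgk2, the intronless germ cell form of phosphoglycerate kinase, whose promoter is known as one that loses methylation in male germ cells before it is used, had 4 CpGs in its promoter, none of which passed the depth rule. In the libraries that listed them the level was 45.5% of 11 reads in old replicate 2 (exact Clopper-Pearson 95% interval 16.7% to 76.6%), against 31.8% of 44 reads in young replicate 1 (18.6% to 47.6%), 22.6% of 31 reads in young replicate 2 (9.59% to 41.1%) and 100% of 5 reads in young replicate 3 (47.8% to 100%). Old replicate 1 listed no read there. A single CpG at -994 bp was methylated in all 41 reads of the 5 libraries, and the pooled promoter level was 34.1% of 91 reads. Intervals here cover counting error only, and reads of neighbouring CpGs can come from the same molecules.

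Ldhc, the germ cell lactate dehydrogenase, was covered at its promoter by old replicate 1 alone, where 3 of 25 reads over 5 CpGs were methylated (12%, exact Clopper-Pearson 95% interval 2.55% to 31.2%). Downstream of the start the level was 85.7% and 72.9% in old replicates 1 and 2, against 72.7%, 60% and 69.2% in young replicates 1, 2 and 3, the value of young replicate 2 resting on 5 reads. In old replicate 1 the promoter was thus lower than the sequence that followed it (interval 73.8% to 93.6% downstream). The promoter reads were 5 at each of the 5 CpGs and may come from the same molecules, so the intervals cannot be used to compare both. Gapdhs, the glyceraldehyde-3-phosphate dehydrogenase of the sperm tail, was covered at its promoter by old replicate 2 alone, with all 16 reads methylated (79.4% to 100%). These came from 3 CpGs at 31 to 41 bp after the start, and none before the start was listed in the promoter. The listed promoter levels of the 4 germ cell isozyme genes thus differed. Those of Ldhc and Gapdhs each rest on 1 library, not the same one, and on few reads at unlike positions.

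**Figure D1:**
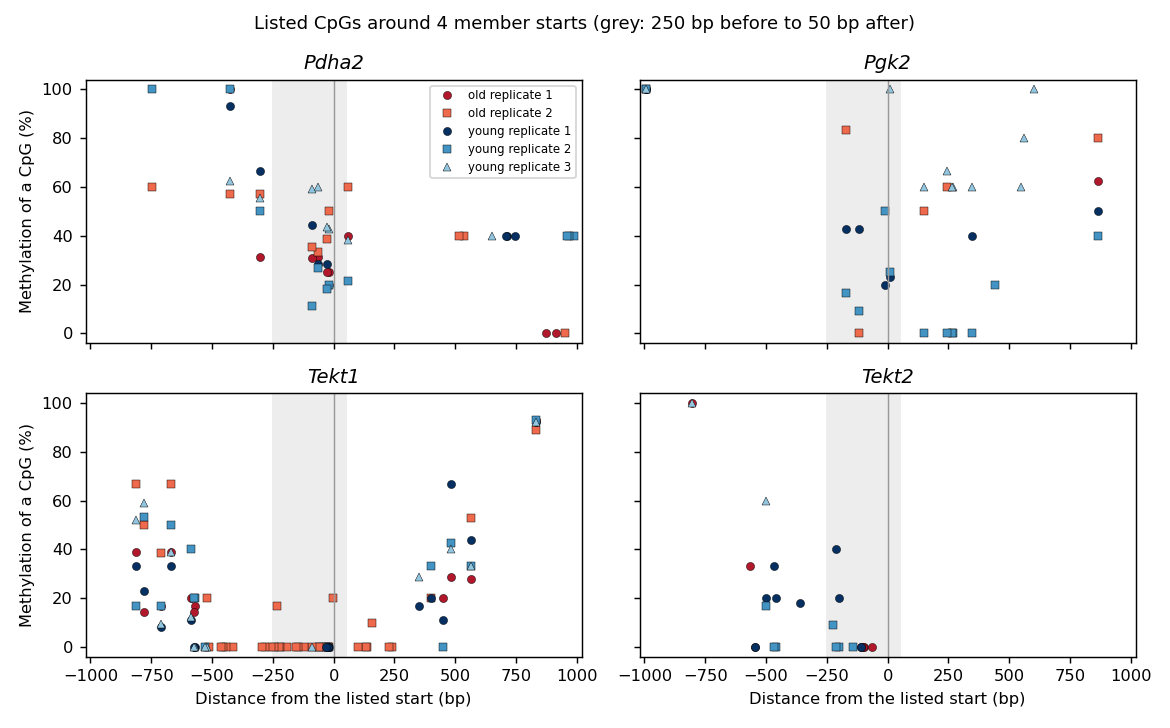
Methylation (%) of each listed CpG against its distance in bp from the listed start, for Pdha2, Pgk2, Tekt1 and Tekt2, with 1 symbol per library and the promoter shaded. The 4 promoter CpGs of Pdha2 are partly methylated in all 5 libraries, the promoter CpGs of Tekt1 and Tekt2 lie mostly at 0%, and many points rest on 5 reads.

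Tekt1 and Tekt2 encode tektins, filament proteins of the tail's microtubules, and their promoters were the least methylated of those printed, at 1.53% and 5.33% of pooled reads. For Tekt1, 17 of the 20 promoter CpGs were listed, and the level was 1.89% of 106 reads in old replicate 2, against 0 of 20 reads in young replicate 1 and 0 of 5 reads in young replicate 3. The young values thus rest on far fewer reads than the old one. For Tekt2, 8 of the 14 promoter CpGs were listed, none nearer the start than -64 bp, and the level was 0 of 21 reads in old replicate 1, against 20% of 15 reads in young replicate 1 and 2.56% of 39 reads in young replicate 2. The exact Clopper-Pearson 95% interval of young replicate 1 was 4.33% to 48.1%. Spaca3, which encodes a lysozyme-like protein of the acrosome, stood at the other end, with 89.5% in old replicate 1, against 78.3%, 91.7% and 76.2% in young replicates 1, 2 and 3. Single CpGs there ran from 57.1% to 100% per library, so each library that listed the promoter had most of its reads methylated.

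Over the 8 members with a listed start and at least 20 pooled promoter reads, the promoter was under 20% methylated in 4, between 20% and 80% in 2 and over 80% in 2, with a median of 23.0%. Besides the genes above these were Izumo1, the fusion protein that binds the egg's receptor, at 10% of 20 reads, and Spata19, a protein of the mitochondrial sheath, at 91.8% of 61 reads. For Izumo1 the reads came from young replicates 2 and 3 alone, 10 in each, over 3 of its 8 promoter CpGs, and from no old library. The promoters of the 26 members held a median of 7 CpGs and an observed-to-expected CpG ratio of 0.42, against 13 CpGs and 0.58 over 17492 protein-coding genes. The low promoters differed in CpG content, from 20 CpGs in Tekt1 to 8 in Izumo1.

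The half-site of the CRE, TGACG or CGTCA on the printed strand, so that both strands are covered, was found in 12 of 26 member promoters (46.2%), against 23.8% of the promoters of protein-coding genes and 20.9% of those of all genes. The full element TGACGTCA, which contains the half-site on both strands, was found in 1 member (3.85%), Izumo1, at -96 bp, against 2.33% of protein-coding genes. TATAAA or its reverse complement TTTATA was found in 2 members (7.69%), Pdha2 and Gsg1, against 13.3%. Each half-site contains a CpG, and at the few that were listed the levels differed between genes. In old replicate 1 the 2 half-sites of Ldhc, at -61 and -47 bp, were at 1 methylated read of 5 each (20%). In Tekt1 the half-site CpG was at 0 of 5 reads in old replicate 2, and in Gapdhs it was at 6 of 6 reads in that library. In Spaca3 it was at 100% in old replicate 1, against 85.7%, 83.3% and 85.7% in young replicates 1, 2 and 3. Such a match is only a match of letters, and no binding was measured.

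Across the whole start windows the 8 measured members spanned nearly the whole range of methylation, and none passed the test of old against young sperm. Their median level was 40.1%, against 83.1% over all 6922 measured starts and 54.6% over measured starts of protein-coding genes with a listed start. The 8 include 3 gene ends chosen for lower methylation, and the 5 members with a listed start had a median of 36.1%, none over 80%. Of the 8, 2 were under 20%, 4 between 20% and 80% and 2 over 80%. The plot of start levels shows old and young libraries interleaved in each gene.

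**Figure D2:**
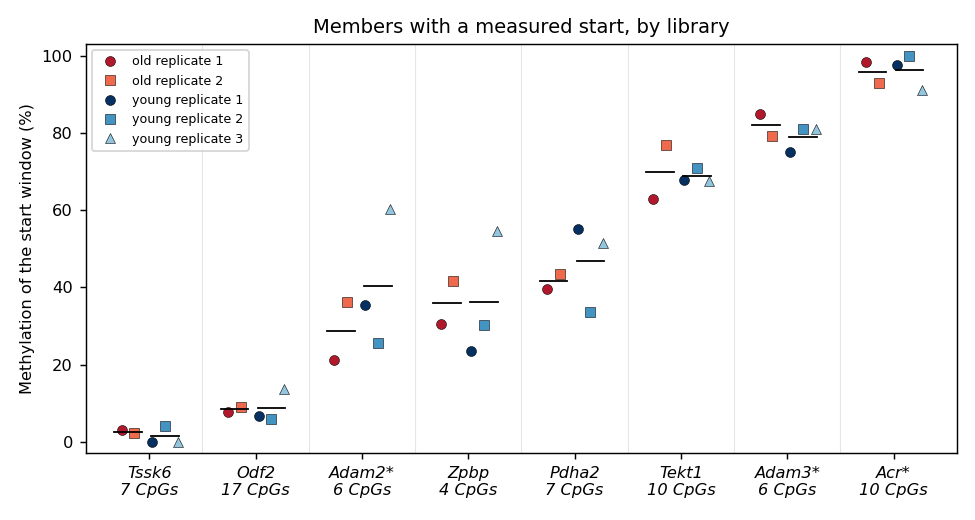
Methylation (%) of the start window in each library for the 8 members with a measured start, old libraries left of young ones, with black bars for group means and an asterisk for genes measured at a gene end. Levels run from 2.03% for Tssk6 to 96.0% for Acr, and in no gene do the old and young libraries separate.

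The least methylated start was that of Tssk6 (chr8:69902184-69903518, plus strand), a testis kinase needed for sperm to fuse with the egg. It stood at 3.03% and 2.27% in old replicates 1 and 2, against 0%, 4.2% and 0% in young replicates 1, 2 and 3, over 7 CpGs. Every library held 88 to 119 reads there, and a count of 0 allowed up to 2.91% in young replicate 1 and 3.16% in young replicate 3, taken as 3 counts of the reads. The start of Ndufa13 lies within 1 kb, so the low window is shared with that gene.

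Odf2, an outer dense fibre protein (chr2:29889014-29931746, plus strand), was the deepest start, with 905 to 1093 reads per library over 17 CpGs. It stood at 7.78% and 9.06% in old replicates 1 and 2, against 6.69%, 5.98% and 13.6% in young replicates 1, 2 and 3. Young replicate 3 was highest and the other 4 libraries lay within a few points of each other. Its CpGs averaged 53.2 to 64.3 reads by library, from 5 to 8 at the CpG at -421 bp, in the libraries that listed it, to 242 to 319 at -827 bp, and a contribution of near-identical copies was not tested. The CpG at -827 bp stood at 19.1% over all libraries, from 12.4% in young replicate 2 to 31.25% in young replicate 3. The other CpGs used lay at 0% to 7.26% over all libraries, so the level of the start leans on that CpG.

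Zpbp, which encodes a zona pellucida binding protein of the acrosome (chr11:11279624-11464223, minus strand), stood at 30.4% and 41.7% in old replicates 1 and 2, against 23.5%, 30.3% and 54.5% in young replicates 1, 2 and 3. Its 4 CpGs (chr11:11462834-11463092) lie upstream of the listed start but within the gene span, and the start of Spata48 lies within 1 kb of them. Adam2, the sperm surface protein also called fertilin beta, stood at its gene end at 21.3% and 36.2% in old replicates 1 and 2, against 35.5%, 25.6% and 60.2% in young replicates 1, 2 and 3. In both genes young replicate 3 was the highest library and old and young libraries overlapped. Adam2 had the largest difference of the 8, with 28.8 ± 10.5% in old sperm (SD, n = 2) and 40.4 ± 17.8% in young sperm (SD, n = 3). The difference of -11.7 points had an unadjusted p of 0.107 (quasi-binomial model, adjusted p = 1), and it ran from -19.1 to -1.77 points (without young replicate 3) with each library left out. Without young replicate 2 it was -19.1 points, with an unadjusted p of 0.0214 and an adjusted p of 1 in that model.

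The whole window of Pdha2 stood at 39.6% and 43.5% in old replicates 1 and 2, against 55.1%, 33.7% and 51.6% in young replicates 1, 2 and 3. The old libraries lay within the young range, and the difference of -5.25 points had an unadjusted p of 0.491 in the quasi-binomial model. Tekt1 stood at 62.8% and 76.8% in old replicates 1 and 2, against 67.7%, 71.0% and 67.5% in young replicates 1, 2 and 3. That level was set by 1 CpG 834 bp downstream with 117 to 183 reads per library and 92.1% methylation, while the other 9 CpGs lay at 7.41% to 46.4%. With every listed CpG counted, the difference of Tekt1 was -13.4 points in place of 1.05, and as a mean of CpG percentages it was 11.2 points. With every listed CpG old replicate 2 listed 39 CpGs, against 11 in old replicate 1 and 13 to 17 in the young libraries, so the libraries were not compared over the same CpGs. The start of the lncRNA gene Gm34317 lies in the same window.

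The highest levels among the measured windows were those around the gene ends of Adam3 and Acr, the gene of the acrosomal protease acrosin. Adam3, a sperm surface protein needed in mice for sperm to pass into the oviduct, stood at 84.8% and 79.2% in old replicates 1 and 2, against 75%, 81.0% and 81.0% in young replicates 1, 2 and 3. Of its 6 CpGs used, the 4 over 80% over all libraries lie 806 to 951 bp past the end, within the neighbouring gene Adam5. The other CpGs used stood at 57.4% and 65.6%. CpGs inside the gene that missed the depth rule stood at 8.33% to 40%, on 5 to 12 reads each. With every listed CpG the window stood at 67.9% of 315 pooled reads, so the level under the depth rule leans on the sequence past the end. Acr stood at 98.3% and 93% in old replicates 1 and 2, against 97.7%, 100% and 91.1% in young replicates 1, 2 and 3. Since neither has a listed start, it is not known here whether these ends are the promoter ends.

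No member start was called different, and none of all 6922 measured starts was (0% called, at an adjusted p under 0.05 and at least 10 points). At an unadjusted p under 0.05 there were 0 of 8 member starts, beside 2.24% of all starts. The mean was higher in old sperm in 3 of 8 member starts, beside 52% of all, and the libraries did not overlap in 0 of 8 in either direction, beside 7.99% higher and 7.53% lower over all starts. With limma on log odds there was likewise no call. A plain binomial model, blind to how libraries vary, called 93 starts, among them Adam2 (adjusted p = 0.0364).

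The members whose starts missed the depth rule could be read only by summing every listed CpG over all libraries, which mixes libraries and was added after seeing the data. By this measure 23 of the 26 listed member starts had at least 20 pooled reads, with a median of 53.3%, against 28.3% over 15381 protein-coding genes. Of the 23, 6 were under 20%, 10 between 20% and 80%, and 7 over 80%, beside 42.1%, 32.3% and 25.6% of protein-coding starts. This measure also relaxed the read minimum and so covered other genes. With every listed CpG but 20 reads in each library, the member median was 38.0% over 10 starts and gene ends. Where the members stand against protein-coding genes therefore depends on which starts are counted, and no test was made of it.

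By role, the CatSper starts were at both extremes. Catsper3 stood at 94.2%, Catsper4 at 94.9% and Catsperb, an auxiliary subunit, at 94.0%, while Catsper2 stood at 14.5% in a window that holds the start of Pdia3 as well. In the acrosome group Zpbp2 was at 10%, Spata16, a protein of the vesicles that form the acrosome, at 39.8%, and Gsg1 and Spaca3 at 87.9% and 88.5%. In the tail group Spata18, which acts in mitochondrial quality control, was at 3.56% and Tekt2 at 18.4%, while Smcp and Spata19 of the mitochondrial sheath were both at 91.1%. Both low and high starts thus occurred in the CatSper, acrosome and tail groups. Between these extremes lay Spaca1 at 45.3%, Pgk2 at 49.8%, Izumo1 at 53.3%, Ldhc at 65.4%, Gapdhs at 70.5% and Acrv1, a protein of the acrosomal matrix, at 79.2%. Of the gene ends, Odf1 was at 69.1%, Catsper1 at 91.8% and Crem, the activator itself, at 96.8%. For Crem this is the end chosen under the depth rule, and with every listed CpG the other end was the less methylated one. The starts of Tssk1, Tssk2 and Hspa1l held no listed CpG and are not analysed here.

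The starts lay in a dip of methylation, with the lowest mean in the 1-kb bin just upstream. The bins before and after the start hold different sets of members. Odf2, Tssk6 and Spata18, at levels of 8.59%, 2.03% and 4.49%, had usable CpGs in the start window only before the start. In the kilobase before the listed start the 12 members with a usable CpG averaged 50.9% and 52.6% in old replicates 1 and 2, against 46.4%, 47.1% and 56.1% in young replicates 1, 2 and 3. In the kilobase after it the 6 members with a CpG averaged 69.6% and 80.1% in old replicates 1 and 2, against 77.9%, 58.4% and 73.0% in young replicates 1, 2 and 3. Protein-coding genes averaged 56.6% before and 55.7% after the start. From 2 kb outwards the members averaged 87.2% to 93.7% by bin.

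**Figure D3:**
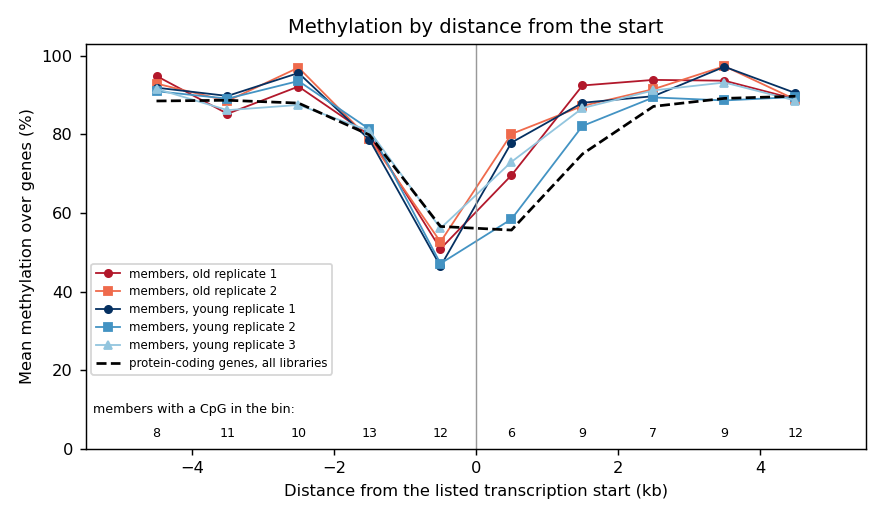
Mean methylation (%) over members in 1-kb bins of distance from the listed start (kb), 1 line per library, with protein-coding genes over all libraries dashed and the number of members per bin along the bottom. The members' dip reaches 52.6% over all libraries just before the start, beside 56.6% for protein-coding genes, and the bin just after it rests on 6 members.

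Gene bodies of the members were highly methylated in all libraries. The median over the 24 measured bodies was 94.0%, against 93.4% over all 22782 measured bodies, and 23 of the 24 were over 80%. Of 1900 single CpGs in member bodies, 92.7% were over 80% methylated and 6 (0.316%) under 20%, whereas of 93 CpGs in their starts 34.4% were under 20%. All of those low start CpGs lay in Odf2 (17), Tssk6 (7), Spata18 (4) and Tekt1 (4), so the share does not describe the members at large. The bodies of Pgk2, Pdha2, Tekt2, Catsper1, Tssk1, Tssk2, Tssk6 and Hspa1l, most of them short genes, did not pass the depth rule. In 5 of the 6 members with both measured, the start or gene end varied more between libraries than the body, with a range over the 5 libraries of 7.62 to 38.9 points for starts and ends and 1.73 to 10.3 points for bodies over all 6. Acr went the other way, with 8.87 points at its end and 10.3 in its body. Starts had far fewer reads, as in Zpbp with 22 to 51 per library at the start and 7234 to 10002 in the body.

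The start or gene end lay below the body by 85.9 points in Odf2, 55.5 in Adam2, 51.4 in Zpbp, 22.6 in Tekt1 and 10.5 in Adam3, and above it by 4.5 points in Acr. In Odf2, Adam2, Zpbp, Tekt1 and Adam3 the sign held in each of the 5 libraries. For Adam2, Adam3 and Acr the value is that of the gene end chosen for its lower methylation, so the choice itself favours a low value, although Acr lay above its body. The exception among bodies was Izumo1, with 29.8% and 35.4% in old replicates 1 and 2, against 24.6%, 18.2% and 48.7% in young replicates 1, 2 and 3. Its 4 CpGs lie past the end of the gene, at the start of the neighbouring gene Rasip1, so they do not describe Izumo1 itself.

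No member body was called different, and none of all bodies was (0% called). The mean was higher in old sperm in 12 of 24 member bodies, beside 52.7% of all. At an unadjusted p under 0.05 there was 1 of 24, Zpbp, beside 1.39% of all bodies. The libraries did not overlap in 4 with old sperm higher (Spaca1, Zpbp, Zpbp2 and Tekt1), beside 7.13% of all, and in 4 with old sperm lower (Acr, Acrv1, Catsper2 and Odf1), beside 6.33%. Such separation could be small, as in Catsper2, where all 5 libraries lay within 0.737 points. A fit with limma on log odds made no call, and the binomial model called 85 bodies with no member among them. Zpbp had an adjusted p of 5.38e-06 in that model and a difference under the 10 points a call needed.

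**Figure D4:**
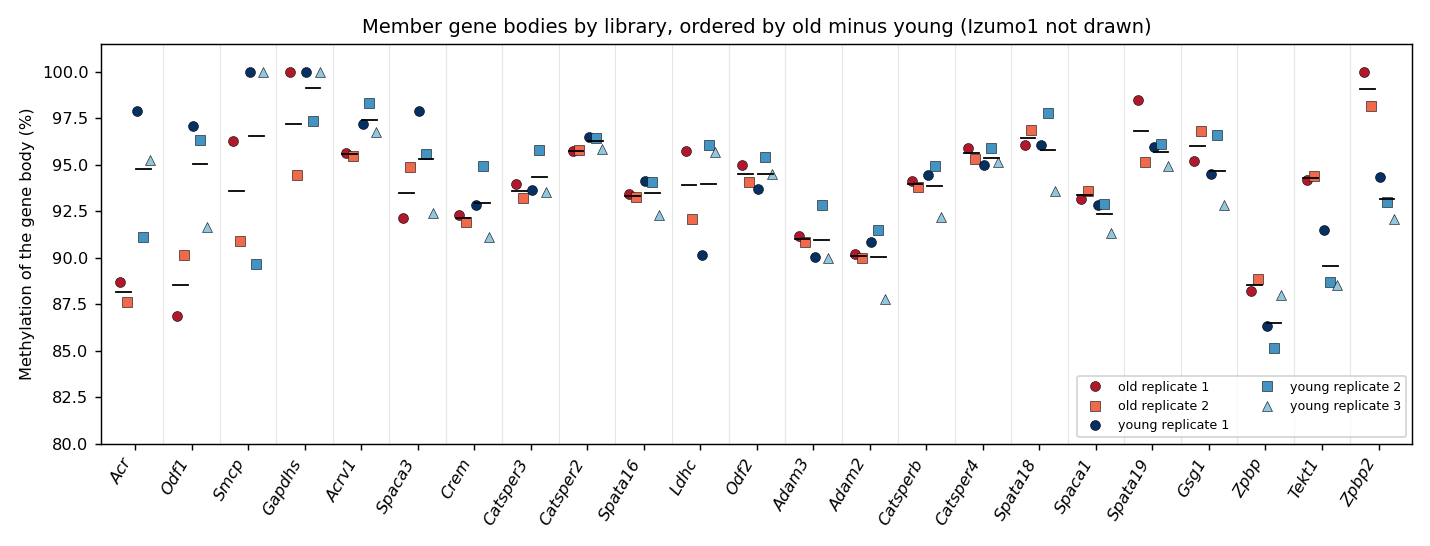
Methylation (%) of the gene body in each library for 23 of the 24 measured member bodies, ordered by the difference between old and young means, old libraries left of young ones, with black bars for group means. The vertical axis starts at 80%, and apart from Acr, Odf1, Tekt1 and Zpbp2 the group means differ by under 3 points.

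Zpbp was the one member with a body p under 0.05. Its body stood at 88.2% and 88.9% in old replicates 1 and 2, against 86.3%, 85.2% and 88.0% in young replicates 1, 2 and 3, over 393 CpGs. Old sperm were higher by 2.04 points, with an unadjusted p of 0.0424 (quasi-binomial model, adjusted p = 1). With each library left out the unadjusted p ran from 0.000328 (without young replicate 3) to 0.186 (without old replicate 2). The body holds 21 partly methylated CpGs within 517 bp about 25 kb inside the gene (chr11:11436885-11437401), which averaged 46.8 to 67.0 reads per CpG by library. That stretch stood at 35.3% and 44.5% in old replicates 1 and 2, against 34.6%, 21.3% and 51.8% in young replicates 1, 2 and 3. Without it the body stood at 95.7% and 95.1% in old replicates 1 and 2, against 95%, 95.4% and 93.9% in young replicates 1, 2 and 3, and the difference was 0.668 points with an unadjusted p of 0.129 and an adjusted p of 1 in the same model. A contribution of near-identical copies to its reads was not tested.

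The most negative differences among bodies were in Acr and Odf1, and neither passed the test. Acr stood at 88.7% and 87.6% in old replicates 1 and 2, against 97.9%, 91.1% and 95.3% in young replicates 1, 2 and 3. The difference was -6.60 points over 15 CpGs (unadjusted p = 0.0668, adjusted p = 1, quasi-binomial model), and it was 2.96 points over the CpGs that all 5 libraries listed. Odf1, a major protein of the outer dense fibres, stood at 86.9% and 90.2% in old replicates 1 and 2, against 97.1%, 96.3% and 91.7% in young replicates 1, 2 and 3, a difference of -6.52 points (unadjusted p = 0.103, quasi-binomial model). In both genes each old library lay below each young one. Smcp followed with 96.3% and 90.9% in old replicates 1 and 2, against 100%, 89.7% and 100% in young replicates 1, 2 and 3, and there the libraries overlapped.

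The most positive differences were in Zpbp2 and Tekt1, and neither passed the test. Zpbp2, the paralog of Zpbp, stood at 100% and 98.2% in old replicates 1 and 2, against 94.3%, 93% and 92.1% in young replicates 1, 2 and 3, a difference of 5.95 points over 9 CpGs with 39 to 63 reads per library (unadjusted p = 0.0946, quasi-binomial model). Tekt1 stood at 94.2% and 94.4% in old replicates 1 and 2, against 91.5%, 88.7% and 88.5% in young replicates 1, 2 and 3. In both genes each old library lay above each young one. The difference of Tekt1 was 4.71 points, and 0.967 points with every listed CpG. Gapdhs, at 100% and 94.4% in old replicates 1 and 2, against 100%, 97.4% and 100% in young replicates 1, 2 and 3, had a difference of -1.90 points, with 30 to 38 reads per library.

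Among genes of the same roles, the CatSper bodies had the narrowest levels, at 93.9% to 96.0% over 4 genes, with 2 higher and 2 lower in old sperm. The body of Ldhc stood at 95.8% and 92.1% in old replicates 1 and 2, against 90.1%, 96.1% and 95.7% in young replicates 1, 2 and 3. The body of Crem stood at 92.3% and 91.9% in old replicates 1 and 2, against 92.8%, 95% and 91.1% in young replicates 1, 2 and 3. The body of Odf2 stood at 95% and 94.1% in old replicates 1 and 2, against 93.7%, 95.4% and 94.5% in young replicates 1, 2 and 3. In Ldhc, Crem and Odf2 the old and young libraries overlapped.

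Within the members or up to 1000 bp beside them, 12 stretches of at least 3 neighbouring CpGs under 60% methylation were found, at 11 genes, each 137 to 616 bp long. Those of Izumo1, Tssk6 and Tekt1 overlap the neighbouring genes Rasip1, Ndufa13 and Gm34317. Because low methylation defined the stretches, their levels are a description. Outside those of Tssk6, Spata18 and Odf2 they were partly methylated in each library. Of the 12, 8 had a lower mean in old sperm, beside 52% of all measured starts with a higher one. Young replicate 3 was the highest library in 9 of the 12, with a mean of 40.4%, while the other libraries averaged 25.1% and 29.6% in old replicates 1 and 2 and 23.3% and 24.1% in young replicates 1 and 2. Both old libraries thus averaged above young replicates 1 and 2, so the count of lower means in old sperm leans on young replicate 3. Young replicate 3 was also the highest library in 49.4% of the 1313 starts over all genes with a level of 20% to 60%, and young replicate 2 the lowest in 42.4%. The departure of these libraries was thus not particular to the members.

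**Figure D5:**
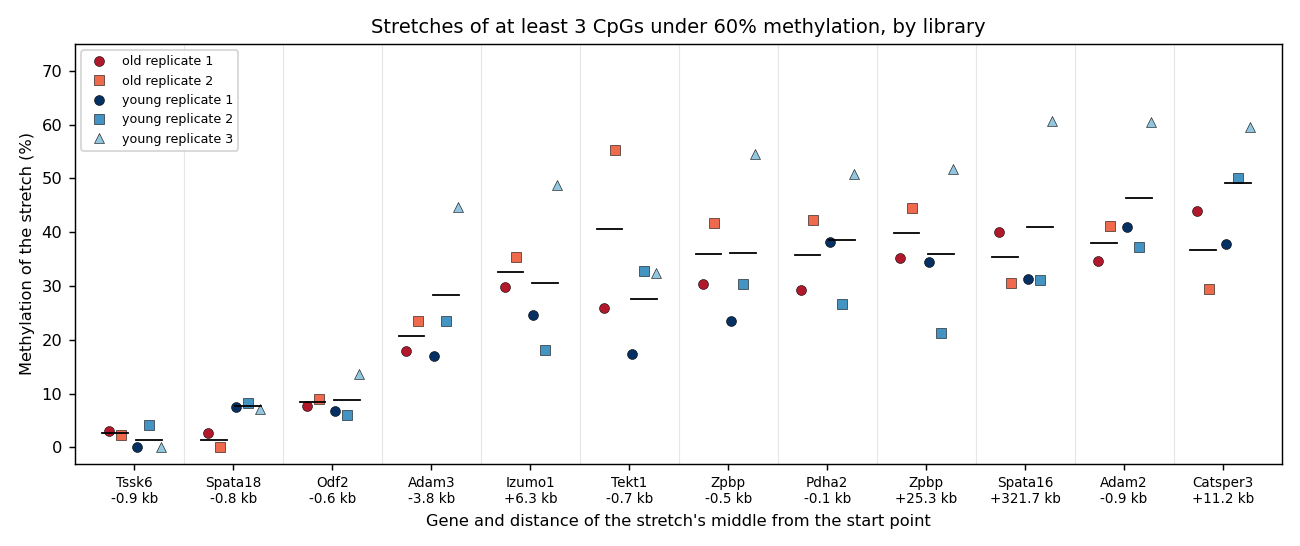
Methylation (%) in each library of the 12 stretches of at least 3 CpGs under 60%, named by gene and by the distance in kb of the stretch's middle from the start point, old libraries left of young ones, with black bars for group means. For Adam2 and Adam3 the distance is counted from the gene end, and the negative value lies inside the gene span. Young replicate 3 is the highest library in 9 of the 12 stretches.

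Of the 12 stretches, 1 separated by age, beside 7.99% of all measured starts with old sperm higher and 7.53% with old sperm lower. Upstream of Spata18, 4 CpGs (chr5:73650483-73650619) stood at 2.63% and 0% in old replicates 1 and 2, against 7.5%, 8.33% and 7.14% in young replicates 1, 2 and 3, with 19 to 40 reads per library. These are few methylated reads in any library, and the start window did not pass the depth rule. The start of Gm34902 lies in the same start window. With no minimum per gene, none of 16 member starts had an unadjusted p under 0.05 in the quasi-binomial model, this window included. Over all starts under the depth rule that share was 2.24%, and the share without the minimum is not given here. Within Catsper3, 6 CpGs 11 kb inside the gene stood at 43.9% and 29.4% in old replicates 1 and 2, against 37.8%, 50% and 59.6% in young replicates 1, 2 and 3. Near the far end of Spata16, 6 CpGs stood at 40.0% and 30.6% in old replicates 1 and 2, against 31.3%, 31.1% and 60.8% in young replicates 1, 2 and 3, the value of old replicate 1 resting on 10 reads. In both stretches young replicate 3 was the highest library.

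Maternally imprinted control regions are unmethylated in sperm and methylated on 1 allele in body cells, so they show how free of other cells a sperm preparation is. Of 11 such genes, 3 had a measured start (Peg3, Nnat and Snrpn), and Peg10 was measured at a gene end that need not be its start. Peg3 stood at 42.0% and 31.5% in old replicates 1 and 2, against 42.2%, 13.4% and 43.4% in young replicates 1, 2 and 3, and Nnat at 18.2% and 18.1% in old sperm, against 14.7%, 9.82% and 25.3% in young sperm. Both were highest in young replicate 3, as were 9 of the 12 stretches of the members, and lowest in young replicate 2. Peg10 and Snrpn stood at 67.5% to 95.4% in all libraries, and the mean over the 4 was 57.9% and 54.6% in old replicates 1 and 2, against 54.9%, 49.6% and 59.3% in young replicates 1, 2 and 3. Control-region coordinates were not at hand, so a window need not hold its control region, that of Snrpn included. The mean over the 4 is therefore a description only. Measured bodies of 4 genes of the epididymal epithelium averaged 90.1% and 91.0% in old sperm, against 88.2%, 93.8% and 84.0% in young sperm. For 3 leukocyte genes the averages were 90.5% and 89.1%, against 92.6%, 93.9% and 87.8%. Young replicate 3 was lowest in both, as it was over all bodies at 88.6%. The part of other cells in the members' values was not tested.

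Of the 10 somatic relatives of the members (among them Ldha, Pgk1, Pdha1 and Creb1), 1 had a measured start. The start of Creb1, a relative of Crem in body cells, held no methylated read in any library, which allows up to 5.17% and 2.59% in old replicates 1 and 2, and up to 7.69%, 2.42% and 3.09% in young replicates 1, 2 and 3, again as 3 counts of the reads. Bodies of 6 relatives were measured, with 3 higher and 3 lower in old sperm and none with an unadjusted p under 0.05.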

How the data were processed

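CpG methylation was measured in 2 old and 3 young sperm libraries. The submitters' processing notes name the build mm10 (GRCm38) and the tools methylKit 1.4.0, Bismark 0.16.3 and Trim Galore 0.4.3. Tool settings and the handling of duplicates were not given in the sources used here. Per the file headers, the deposited tables give for each cytosine the coverage as a count of reads, and the percent of those reads with C, counted as methylated, and with T, counted as unmethylated. None of the 5 tables lists a cytosine under 5 reads. Percent times coverage gave whole reads for 100% of listed cytosines, within 0.005 percentage points. Bisulfite reads do not separate methylation from failed conversion or from C-to-T variants, and near-identical copies can share reads. Reads are not independent molecules, so intervals and limits from a count of 0 cover counting error only.

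Reads of both strands were summed per CpG, and CpGs with 5 or more reads in at least 4 libraries were kept (3605848 of 13063725, 27.6%). Reads were summed per start and body. Each was tested, old against young, with a quasi-binomial logistic model whose dispersion was moderated across all genes in the way of limma, with a floor of 1, with Benjamini-Hochberg adjustment over all starts or all bodies. Calls were made at an adjusted p under 0.05 with at least 10 points. Old minus young is a difference of group means in percentage points, and a level is the mean of both group means. The model was also run on simulated data, with no outcome given here. With 2 old and 3 young libraries, the lack of calls does not show a lack of change. Starts, promoters and their sequences came from RefSeq tables of the same build, and gene spans from RefSeq. Tools were R 4.3.3 with limma 3.58.1 and Python 3.11.15 with scipy 1.17.1, numpy 2.4.6, matplotlib 3.10.9 and pandas 2.3.3.

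The members and all lists were chosen with earlier results of these data known. Values in every library are given for the 4 largest rises and falls, for starts between 20% and 80%, for the least and most methylated starts and for members with a somatic relative. Stretches, zones and promoters were described in addition. Alternatives covered the CpG rule, an upper coverage limit, the minimum per gene, limma on log2 odds, a binomial model, the start window, the weighting of CpGs, the replicate number and each library left out. The sum over every listed CpG and the Zpbp body without its stretch were added after seeing the data.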

Additional observations from a re-analysis of the deposited data

How the results depend on the processing

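The median level of the 8 measured member starts, 40.1%, was 69.8% over 16 members with no minimum per gene and 77.5% over 16 members in a window of 2000 bp, so it describes those starts that passed the depth rule. It was 37.2% to 42.9% with each library left out. The median of member bodies, 94.0%, was 92.8% with every listed CpG and 93.6% to 94.2% with each library left out. With each library left out there were 0 to 3 called starts (3 without young replicate 3, none a member) and 0 called bodies. The binomial model called 93 starts (40 higher, 53 lower in old sperm) and 85 bodies (41 higher, 44 lower).

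With the replicate block there were 0 called starts and 0 called bodies, and no call changed. At an unadjusted p under 0.05 the replicate block gave 233 starts in place of 155 and 1014 bodies in place of 316. Only 2 replicate numbers are shared by both groups, and libraries of the same number did not deviate together (correlations of 0.00814 and -0.0653 for starts, -0.0283 and -0.0593 for bodies), so the number was not taken as a pairing. Without young replicate 3 those counts were 390 starts and 1343 bodies, and with limma on log2 odds 250 and 730.

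No member difference passed the adjusted threshold under any alternative but the binomial model, and several changed sign, and the cause was not tested. For Acr the start difference ran from -3.24 to 2.00 points with each library left out, and the body difference was 2.96 points over CpGs listed in all 5 libraries. For Adam3 it was -1.56 in the 2000-bp window and -0.169 with every listed CpG. For Odf2 it was 0.0256 in a window of 500 bp, 0.383 as a mean of CpGs, and -1.73 to 2.08 (without young replicate 3) with each library left out. For the Tekt1 start it was -1.42 both with CpGs listed in all 5 libraries and with a minimum of 10 reads, -13.4 with every listed CpG, 11.2 as a mean of CpGs, and -5.94 (without old replicate 2) to 8.04 with each library left out. For the Zpbp start it was -6.37 to 9.13 (without young replicate 3) with each library left out. For the Gapdhs body it was -4.68 to 0.877 (without old replicate 2) with each library left out, and for the Izumo1 body it was -3.37 with every listed CpG and -4.04 to 11.2 with each library left out. Under the depth rule 24 of 32 member starts could not be tested.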

Other observations

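A further 61 genes of spermatids were listed by function and are not part of the 32. Of these, 6 starts and 4 gene ends were measured, with 5 higher and 5 lower in old sperm and none with an unadjusted p under 0.05, beside 2.24% of all starts. Among the 6 with a listed start 4 were higher and 2 lower, and none separated by age. Among them Cfap43, a protein of the tail, stood at 50.7% and 35.3% in old replicates 1 and 2, against 9.80%, 33.9% and 54.1% in young replicates 1, 2 and 3. Catsperg1, an auxiliary subunit of CatSper, stood at 10.3% and 33.3% in old replicates 1 and 2, against 0%, 4.44% and 35.0% in young replicates 1, 2 and 3. Both genes varied as widely within an age as between ages. Libraries did not overlap at 2 gene ends, both lower in old sperm, beside 7.53% of all starts. One was Izumo4, with 9.86% and 0% in old sperm, against 15.4%, 17.1% and 12.7% in young sperm, and the other was Adam5, with 13% and 13.3%, against 14.8%, 13.4% and 16.5%. Of the bodies, 35 were measured, 24 higher and 11 lower in old sperm, beside 52.7% of all bodies higher. In 1 body, beside 1.39% of all, the unadjusted p was under 0.05, that of Sox30, a transcription factor of spermatids, with 91.7% and 90.9% in old sperm, against 88.2%, 89.6% and 86.1% in young sperm (adjusted p = 1, quasi-binomial model). The 5 genes named here were picked after their values were seen.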
